A study of Mus musculus with 13 samples.

Results

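Chemokines are small secreted proteins that steer white blood cells, and chemokine receptors are the surface proteins that sense them. The genes described here are all those whose symbol names a CC, CXC or CX3C chemokine or receptor followed by a number (Ccl, Cxcl, Cx3cl1, Ccr, Cxcr and Cx3cr1) in the annotation of the array platform. They were taken from probe sets, the groups of probes that report 1 transcript, that name a single gene. These are 48 of the 18193 genes measured, 32 ligands and 16 receptors. Each was represented by its probe set with the highest mean over all 13 arrays.

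The study compared tumours from the livers of mir-122 knockout mice with livers of wild type controls. This microRNA is highly expressed by hepatocytes. There were 5 tumours of mir-122 knockout mice at 14 months and 3 at 11 months, against 3 control livers at 14 months and 2 at 11 months. All were of a B6/129 background. How and in which cells the locus was deleted is not given in the sources used here, and no knockout liver without a tumour was measured, so genotype and tumour cannot be told apart. Nothing in the labels states that the tumours came from separate mice, and p-values measure only the spread between these samples, which may be in part technical. All levels below are the authors' RMA values on a log2 scale, and a log2 fold change is tumour minus control. With the ages combined it gives 14 and 11 months the same weight and need not equal the gap between the 2 printed means.

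Most chemokines are made on demand by resident or arriving cells and act through receptors coupled to G proteins of the Gi class, whose signal makes a cell move up the ligand's gradient. CC ligands mainly act on monocytes, macrophages, lymphocytes and eosinophils, many CXC ligands act on neutrophils or on activated T cells, and Cx3cl1 is anchored in the membrane of the cell that makes it. In the liver, chemokines made by Kupffer cells, endothelium, stellate cells and hepatocytes are known to recruit blood monocytes, neutrophils and T cells in injury and in tumours. NF-kappaB and the factors that answer interferon are textbook regulators of inflammatory chemokine promoters.

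Promoter sequence was available for 35 of the 48 genes, in 39 promoters of 300 bases (250 before and 50 after the transcription start, RefSeq, GRCm38.p6). A match to the NF-kappaB consensus stood in 9 of these 39 promoters, 23.1%, against 4.5% of 32851 promoters. The core of the interferon-stimulated response element (TTTCNNTTT, either strand) was in 10.3% of them, against 10.6% of all promoters. The GAS motif (TTCNNNGAA), at which STAT proteins bind, was in 10.3%, against 8.3% of all. The TATA box (TATAAA, either strand) was in 28.2%, against 13.6%. A match is a description of letters and not a site or a cause. Cxcl10 is shown because it had the largest fold change of the 48 genes and holds both kinds of match. Its window is chr5:92348970-92349109 on the minus strand, from base -220 to base -81 relative to the start, written 5′ to 3′, with the response element core (at -212, on the opposite strand) and then 2 NF-kappaB matches (at -159 and -103) in capitals.
Cxcl10: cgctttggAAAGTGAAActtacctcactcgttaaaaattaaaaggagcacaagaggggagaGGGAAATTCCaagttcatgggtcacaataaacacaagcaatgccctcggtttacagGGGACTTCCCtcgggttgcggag

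The neighbouring ligand genes for the neutrophil receptor Cxcr2, Cxcl1, Cxcl2 and Cxcl3, are shown because their promoters hold the same match. Only Cxcl1 was above background on all 13 arrays, against 4 arrays for Cxcl2 and 1 for Cxcl3, so their values cannot be set against each other. Capitals mark 11 bases that hold overlapping matches to the NF-kappaB consensus, 1 on each strand. The windows are chr5:90891154-90891213 (Cxcl1, bases -91 to -32), chr5:90903782-90903841 (Cxcl2, bases -117 to -58) and chr5:90786008-90786067 (Cxcl3, bases -93 to -34), all on the plus strand.
Cxcl1: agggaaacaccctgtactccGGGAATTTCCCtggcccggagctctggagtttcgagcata
Cxcl2: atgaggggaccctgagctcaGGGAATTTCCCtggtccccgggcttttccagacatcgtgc
Cxcl3: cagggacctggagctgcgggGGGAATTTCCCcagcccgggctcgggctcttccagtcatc
Aligned on the match, 30 of 60 bases are the same in Cxcl1 and Cxcl2, 30 in Cxcl1 and Cxcl3, 24 in Cxcl2 and Cxcl3, and 17 in all 3, the 11 bases of the match included.

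Array medians lay between 5.13 and 5.22 on all 13 arrays. On the first principal component, which held 49.5% of the variance, 3 tumours stood apart from the other 5: KO_tumor_14M replicate 4 and KO_tumor_11M replicates 1 and 2 lay between -17.8 and 1.6, the other tumours between 67.8 and 92.2, and the controls between -79.4 and -64.5. A pair of controls of different age, control_liver_14M replicate 3 and control_liver_11M replicate 1, were nearly identical (Pearson r 0.995 over probe sets, while every other control pair had 0.982 to 0.990). No probe set names mir-122, and the deletion itself could not be checked here. The hepatocyte list, which includes Alb and Ttr, summed to 16.43 to 16.74 in tumours and 16.71 to 16.80 in controls on the log2 scale. This sum follows the brightest markers. Alb averaged 14.64 in tumours and 14.65 in controls, near the highest value on any array (14.58 to 14.84). The sum can therefore hardly show a difference in hepatocyte content.

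Several of the 48 genes were near background. The background of an array was taken as the 95th percentile of 80 probe sets of 71 olfactory and vomeronasal receptor genes, which liver is not known to use, and it lay at 4.62 to 4.85 in tumours and 4.95 to 5.15 in controls. Those 71 genes were themselves a little lower in tumours (median log2 fold change -0.18, against -0.05 over all genes). By limma 11 of them were past the threshold as lower and 0 as higher, while 9.81% of all genes were lower and 10.3% higher. Comparisons of dim probe sets may carry this shift, and its effect on them was not tested. Ccl1, Cxcl15, Ccr1l1, Ccr3, Ccr4, Ccr8 and Cxcr5 were near background on all 13 arrays. These 7 genes are 14.6% of the 48, against 23.4% of all genes. With the median of each array as the limit there were 9 such genes (18.8%, against 27.6%). Above background on all 13 arrays were 21 of the 48 genes (43.8%, against 59.8% of all genes). In most tumours 31 genes were above background (64.6%, against 69.9% of all genes), and in most controls 25 (52.1%, against 65.6%). The 6 genes above it in most tumours but not in most controls were Ccl3, Ccl20, Ccl22, Ccr1, Ccr6 and Cxcr4 (12.5% of the 48, against 5.02% of all genes), and 0 genes were the other way round (against 0.737%). The lower background of the tumour arrays favours this direction. Ccl22 averaged 4.87 in tumours and 4.86 in controls (log2 fold change 0.04, limma adjusted p = 0.799). Ccr6 averaged 4.97 and 4.78 (0.21, adjusted p = 0.374).

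With the ages combined, 13 of the 48 genes passed the threshold of an adjusted p under 0.05 (limma, Benjamini-Hochberg over all 18193 genes). That is 27.1% of the members, against 20.1% of all genes. Higher in tumours were 9 (18.8%, against 10.3% of all genes): the ligands Ccl2, Ccl5, Cxcl9, Cxcl10 and Cxcl16 and the receptors Ccr1, Ccr2, Cx3cr1 and Cxcr4. Lower were 4 (8.33%, against 9.81%), all of them ligands: Ccl9, Ccl24, Ccl27a and Ccl28. At an unadjusted p under 0.05 there were 25 of the 48, against 36.4% of all genes. Over the 48 genes the median log2 fold change was 0.38, and over all genes it was -0.05, and 36 of the 48 had a positive value, against 42.5% of all genes. The count of 13 became 20 without KO_tumor_11M replicate 1, with 20.4% of all genes called in that run. It became 8 without control_liver_11M replicate 2, with 9.97% of all genes called. The 32 ligands had a median of 0.54 and the 16 receptors one of 0.30. In these bulk samples fewer cells of a type and less RNA per cell cannot be told apart, and equally more cells and more RNA.

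**Figure D1:**
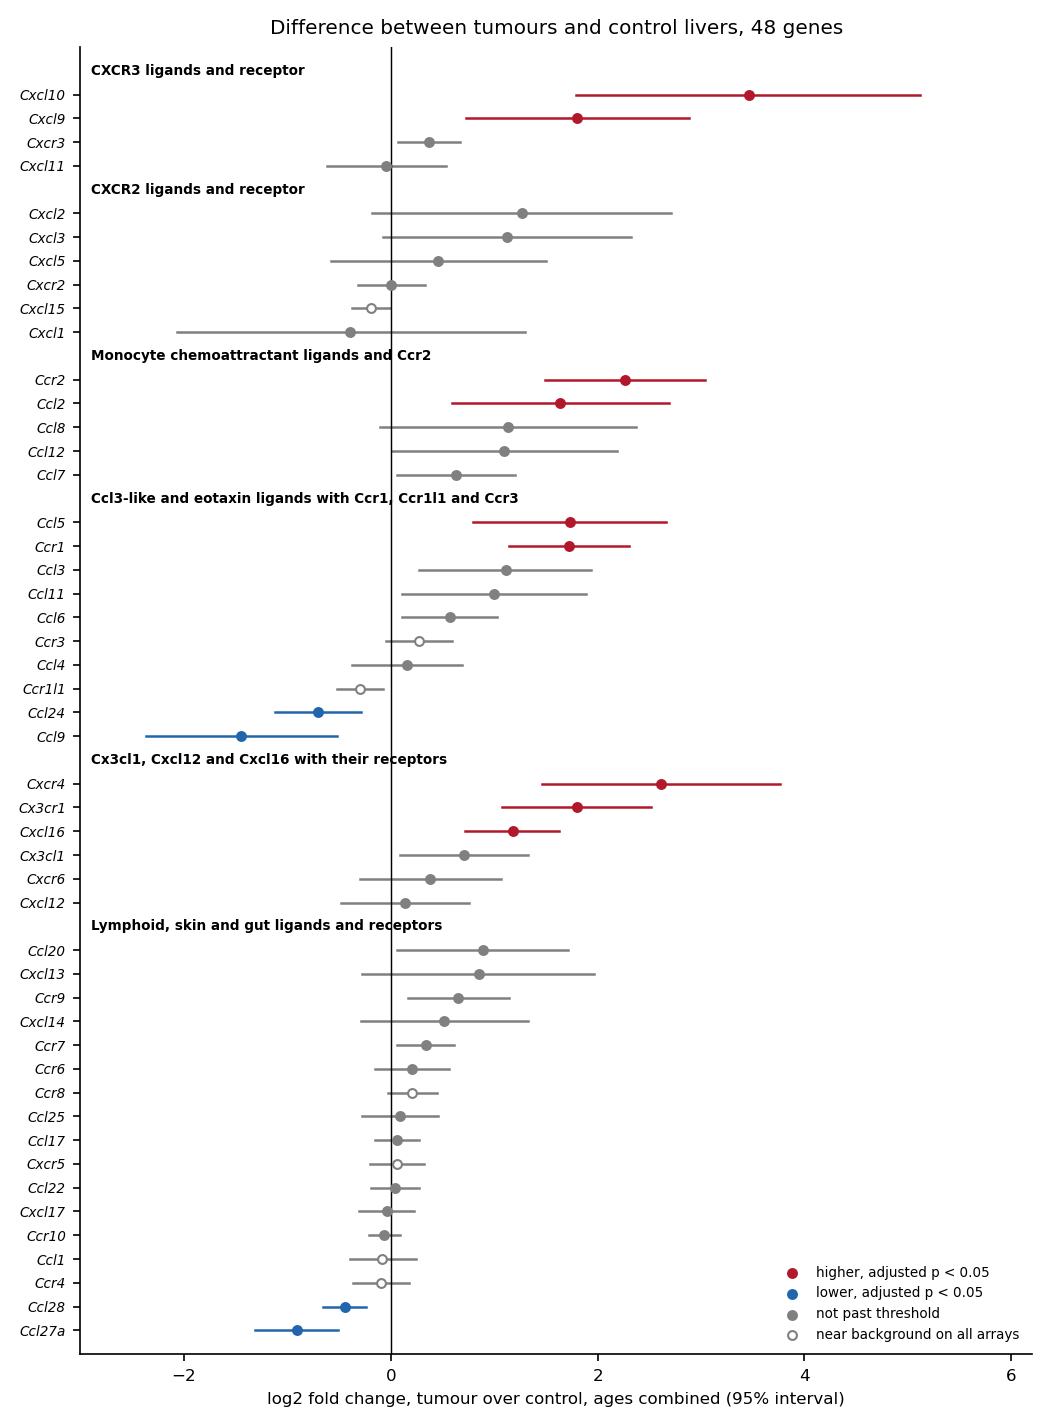
Log2 fold change of tumours over control livers for each of the 48 genes with the ages combined (x axis, with the 95% confidence interval of the limma fit), grouped by role. Red genes passed as higher (9), blue as lower (4), grey genes did not pass, and open circles mark the 7 genes near background on all arrays.

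The groups did not overlap for 5 of these genes. Every tumour was above every control for Ccr1, Ccr2, Cx3cr1 and Cxcl16 (8.33% of the 48, against 6.22% of all genes). Every tumour was below every control for Ccl28 (2.08%, against 5.07%). The share of such genes among the 48 was thus near that among all genes or below it. Among the 13 genes, Ccl27a, Ccl28, Ccr1, Ccr2, Cx3cr1, Cxcl16 and Cxcr4 passed in all 22 other settings tried for single genes.

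The ligands of Cxcr3, a receptor of activated T cells and NK cells, held the largest rise. Of 4 genes 2 rose and 0 fell, with a median of 1.09, while 10.3% of all genes rose and 9.81% fell. Cxcl10, a ligand induced by interferon, was at 10.01, 10.11, 10.93, 7.89 and 10.10 in the 14-month tumours and at 8.18, 10.92 and 10.36 in the 11-month tumours, against 4.71, 5.66 and 8.19 in the 14-month controls and 7.78 and 5.27 in the 11-month controls. The groups overlapped: KO_tumor_14M replicate 4 and KO_tumor_11M replicate 1 were within reach of the 2 nearly identical controls, and the other 6 tumours were above all controls. Tumours averaged 9.81 ± 1.16 (SD, n = 8) and controls 6.32 ± 1.56 (SD, n = 5), a log2 fold change of 3.46 (95% interval 1.79 to 5.12, adjusted p = 0.0098), or 10.99-fold. Without control_liver_11M replicate 2 it was 2.83 with an adjusted p of 0.0614, the only one of the 22 settings in which Cxcl10 did not pass. Without control_liver_11M replicate 1 it was 4.08 (adjusted p = 0.0164), and without both nearly identical controls 4.59 (adjusted p = 0.0111).

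Cxcl9, the ligand most dependent on interferon gamma in textbook accounts, followed with smaller steps. It was at 9.12, 9.79, 8.84, 8.79 and 9.67 in the 14-month tumours and 7.70, 9.73 and 10.54 in the 11-month tumours, against 6.36, 7.24 and 8.42 in the 14-month controls and 8.14 and 7.09 in the 11-month controls. All tumours but KO_tumor_11M replicate 1 lay above all controls, and the 2 nearly identical controls were again the highest of the 5. The log2 fold change was 1.80 (95% interval 0.73 to 2.88, adjusted p = 0.0251). It lost the call without KO_tumor_11M replicate 3 (adjusted p 0.0511), control_liver_14M replicate 1 (0.06) or 2 (0.0541), or control_liver_11M replicate 2 (0.112), at log2 fold changes of 1.50, 1.56, 1.78 and 1.54.

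The third ligand of the receptor, Cxcl11, was at 5.70 to 7.40 in tumours and 6.33 to 6.81 in controls, with a log2 fold change of -0.05 (adjusted p = 0.915). The receptor itself, Cxcr3, had 5.58 to 6.48 in tumours and 5.51 to 5.85 in controls (0.37, adjusted p = 0.0786). Of 7 T cell markers 0 passed by limma, while 20.1% of all genes did. At an unadjusted limma p under 0.05 there were 2, against 36.4% of all genes. Cd3g was above background on 4 of the 13 arrays, and Cd8b1 and Cd5 on 2 each. The summed level of the T cell markers was 8.15 to 8.83 in tumours and 8.07 to 8.34 in controls. Of 7 NK cell markers only Prf1 passed, as lower (-0.33, adjusted p = 0.0191), while 9.81% of all genes were lower. Prf1 had 5.11 to 5.45 in tumours and 5.33 to 5.68 in controls. The list's median was 0.23, and 2 of the 7 had an unadjusted limma p under 0.05. Gzmb had the largest positive value (0.68, adjusted p = 0.0664). Ncr1 was near background on all arrays, and the summed level was 7.32 to 8.08 in tumours and 7.42 to 7.61 in controls.

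The monocyte axis was marked by the receptor Ccr2, which lets inflammatory monocytes leave bone marrow and enter tissue, and its ligand Ccl2. Of the 5 genes of this group 2 rose and 0 fell, with a median of 1.13, while 10.3% of all genes rose and 9.81% fell. Ccr2 was at 6.87, 7.31, 6.88, 8.37 and 6.86 in the 14-month tumours and 7.03, 8.69 and 8.72 in the 11-month tumours, against 5.54, 6.11 and 5.17 in the 14-month controls and 5.31 and 5.22 in the 11-month controls. All 8 tumours lay above all 5 controls. Ccr2 rose by a log2 fold change of 2.27 (95% interval 1.49 to 3.04, adjusted p = 0.00194), or 4.81-fold. Of its other probe sets, over all probe sets tested, 2 were also higher (2.47 and 0.73, adjusted p 0.000538 and 0.0333) and 1 was not past the threshold (-0.23, adjusted p = 0.219).

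Ccl2 was more scattered. It was at 6.04, 5.95, 6.51, 7.12 and 6.50 in the 14-month tumours and 5.67, 9.19 and 7.33 in the 11-month tumours, against 5.10, 5.40 and 5.72 in the 14-month controls and 5.42 and 4.85 in the 11-month controls. KO_tumor_11M replicate 2 was the highest of all and KO_tumor_11M replicate 1 overlapped the controls. The log2 fold change was 1.64 (95% interval 0.59 to 2.69, adjusted p = 0.0334). The call was lost in 7 of 13 runs that left out 1 array, with log2 fold changes of 1.50 to 1.78 and adjusted p of 0.0513 without KO_tumor_14M replicate 5, 0.0583 without KO_tumor_11M replicate 3, 0.0737, 0.0649 and 0.0515 without control_liver_14M replicates 1, 2 and 3, and 0.0769 and 0.12 without control_liver_11M replicates 1 and 2.

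The remaining ligands of this group, which share sequence with Ccl2, did not pass. Ccl8 was at 6.28, 7.07, 6.62, 6.06 and 5.75 in the 14-month tumours and 5.20, 5.52 and 9.04 in the 11-month tumours, against 5.50, 5.18 and 5.69 in the 14-month controls and 5.48 and 4.96 in the 11-month controls (1.13, adjusted p = 0.169). A single tumour, KO_tumor_11M replicate 3, was far above the rest, and without it the value was 0.52 (adjusted p = 0.153). Without the 3 tumours that stood apart Ccl8 passed (2.40, adjusted p = 0.000245), a run in which KO_tumor_11M replicate 3 is the only 11-month tumour. Ccl12 had its one level above background in the same tumour, 6.71, with the other tumours at 3.22 to 4.48 and the controls at 3.03 to 3.32 (1.10, adjusted p = 0.134). Ccl7 was above background in 3 of 8 tumours and 0 of 5 controls (0.63, adjusted p = 0.105).

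Markers of macrophages and monocytes were mostly higher in tumours as well. Of 9 measured, 7 rose and 0 fell, while 10.3% of all genes rose and 9.81% fell. Cd14 (4.31, adjusted p = 0.000938) and Cd74 (1.99, adjusted p = 0.00182) led. Adgre1 (0.91, adjusted p = 0.0588) and Csf1r (0.27, adjusted p = 0.497) did not pass. The summed level of the 9 markers was 12.89 to 14.46 in tumours and 11.82 to 12.15 in controls. Among tumours it was lowest in KO_tumor_11M replicate 1 and highest in KO_tumor_11M replicate 3. Their part in the chemokine result was not tested.

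**Figure D2:**
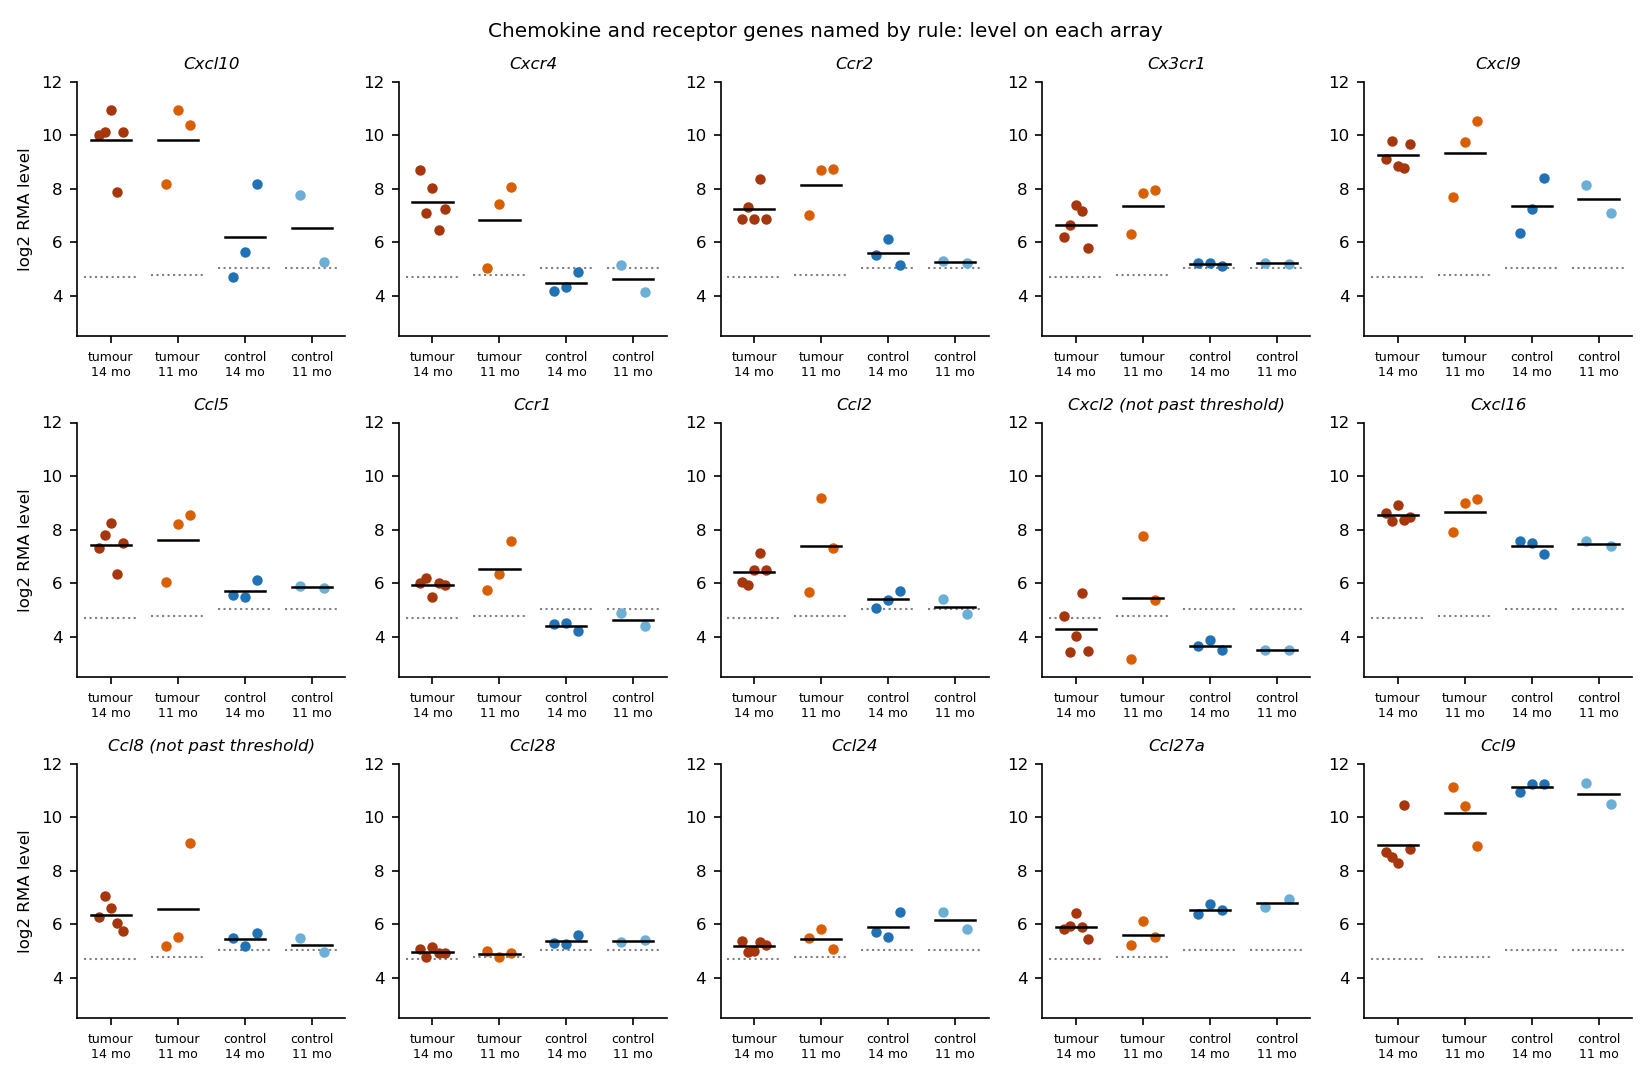
Log2 RMA level on each array of the 15 genes named by rule, with tumours at 14 and 11 months left of controls at 14 and 11 months. Points are arrays, bars are group means, and dotted lines mark the mean background level of each group. Ccr1, Ccr2, Cx3cr1 and Cxcl16 lie higher in every tumour than in any control, and Ccl9 is split within the tumours.

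The group around Ccr1, a receptor of monocytes and neutrophils, and the eotaxin-like ligands moved in both directions. Of 10 genes 2 rose and 2 fell, with a median of 0.42, while 10.3% of all genes rose and 9.81% fell. Ccr1 was at 6.00, 6.19, 5.49, 6.02 and 5.95 in the 14-month tumours and 5.74, 6.34 and 7.59 in the 11-month tumours, against 4.48, 4.53 and 4.21 in the 14-month controls and 4.88 and 4.40 in the 11-month controls. It was above background in all 8 tumours and in 0 of 5 controls, and the groups did not overlap. Ccr1 rose by 1.72 (95% interval 1.14 to 2.30, adjusted p = 0.00187), the smallest adjusted p of the 48 genes. Its second probe set was near background on all arrays (0.25, adjusted p = 0.141 over all probe sets).

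Ccl5, a ligand of Ccr1 made by T cells, NK cells and macrophages, was at 7.32, 7.80, 8.27, 6.36 and 7.49 in the 14-month tumours and 6.07, 8.20 and 8.56 in the 11-month tumours. In controls it was at 5.56, 5.50 and 6.13 at 14 months and 5.89 and 5.84 at 11 months. KO_tumor_11M replicate 1 lay below the highest control and the other 7 tumours above it. The log2 fold change was 1.73 (95% interval 0.80 to 2.66, adjusted p = 0.0163). Without control_liver_11M replicate 1 or 2 the log2 fold changes were 1.75 and 1.72, and without both nearly identical controls 1.85. The call was lost in these runs, each of which left 1 control at 11 months. It was also lost when arrays with no number in their titles were left out (1.80, adjusted p = 0.0714).

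Ccl9, a ligand of Ccr1 in the mouse that myeloid cells make, fell and was split within the tumours. It was at 8.71, 8.53, 8.29, 10.46 and 8.80 in the 14-month tumours and 11.11, 10.43 and 8.93 in the 11-month tumours, against 10.92, 11.24 and 11.23 in the 14-month controls and 11.26 and 10.50 in the 11-month controls. The 3 tumours near the control level are the 3 that stood apart on the first principal component. The log2 fold change was -1.45 (95% interval -2.37 to -0.52, adjusted p = 0.0339), and a second probe set gave -1.46.

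The call for Ccl9 was the least stable of the 13. It held without KO_tumor_14M replicate 4 (-1.63, adjusted p 0.0062), KO_tumor_11M replicate 1 (-1.69, 0.0174) or KO_tumor_11M replicate 2 (-1.52, 0.0414). It was lost without KO_tumor_14M replicates 1, 2, 3 or 5 (0.0531, 0.0551, 0.0509 and 0.053), KO_tumor_11M replicate 3 (-1.14, 0.0611), control_liver_14M replicates 1, 2 or 3 (0.0577, 0.0689 and 0.0666) and control_liver_11M replicates 1 or 2 (0.137 and 0.0668). Without all 3 tumours that stood apart it was -2.25 with an adjusted p of 4.28e-05. Markers of Kupffer cells, the resident macrophages of liver, had their highest sums among tumours in the same 3 tumours. This sum follows the brighter markers, and Cd163, 1 of the 6, was at 2.43 to 5.21 in tumours and 7.51 to 8.07 in controls, lower in every tumour. The summed level was 12.11, 11.34 and 12.23 in KO_tumor_14M replicate 4 and KO_tumor_11M replicates 1 and 2, and 7.89 to 10.02 in the other tumours, against 11.62 to 11.93 in controls. Of these 6 markers only Cd163 passed, as lower (-4.07, adjusted p = 0.000329), while 9.81% of all genes were lower. Of the 6, 0 were near background on all arrays, and their part in the Ccl9 result was not tested.

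Ccl24, an eotaxin that acts on eosinophils through Ccr3, was at 5.37, 4.98, 5.02, 5.35 and 5.22 in the 14-month tumours and 5.48, 5.82 and 5.07 in the 11-month tumours, against 5.70, 5.54 and 6.46 in the 14-month controls and 6.46 and 5.84 in the 11-month controls. The 2 nearly identical controls were the highest, and KO_tumor_11M replicate 2 reached the lower controls. It fell by 0.70 on the log2 scale (adjusted p = 0.0246). Without KO_tumor_11M replicate 3 the value was -0.60 (adjusted p 0.0548), without control_liver_11M replicate 1 it was -0.55 (0.125), and without both nearly identical controls -0.41 (0.169).

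The remaining genes of this group did not pass. Ccl3, a ligand of Ccr1, was above background in 7 of 8 tumours and 0 of 5 controls (1.11, adjusted p = 0.0611). Ccl11, another eotaxin, was above background in 2 tumours and 0 controls (1.0, adjusted p = 0.1). Ccl4, a relative of Ccl3, had 6.06 to 7.53 in tumours and 6.13 to 6.66 in controls (0.16, adjusted p = 0.657). Ccl6, a mouse relative of Ccl9, had 7.77 to 8.94 in tumours and 7.48 to 8.48 in controls (0.57, adjusted p = 0.0745). Within the group, ligands of 1 receptor differed in sign, with Ccl5 higher and Ccl9 lower in tumours while Ccr1 was higher.

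The axes in which a ligand has mainly 1 receptor, Cxcl12 with Cxcr4, Cx3cl1 with Cx3cr1 and Cxcl16 with Cxcr6, made up the next group. Of 6 genes 3 rose and 0 fell, with a median of 0.94, while 10.3% of all genes rose and 9.81% fell. Cxcr4, which holds stem cells and leukocytes near sources of Cxcl12, was at 8.69, 7.10, 8.03, 6.46 and 7.26 in the 14-month tumours and 5.03, 7.43 and 8.06 in the 11-month tumours, against 4.20, 4.33 and 4.90 in the 14-month controls and 5.17 and 4.14 in the 11-month controls. Only KO_tumor_11M replicate 1 lay within the range of the controls, of which 1 was above background. The log2 fold change was 2.61 (95% interval 1.46 to 3.76, adjusted p = 0.0065), or 6.10-fold. Its ligand Cxcl12 had 8.83 to 11.29 in tumours and 9.85 to 10.35 in controls (0.14, adjusted p = 0.739).

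Cx3cr1, a receptor of patrolling monocytes and tissue macrophages, was at 6.21, 6.64, 7.41, 7.16 and 5.81 in the 14-month tumours and 6.30, 7.85 and 7.94 in the 11-month tumours. In controls it was at 5.23, 5.22 and 5.13 at 14 months and 5.23 and 5.20 at 11 months. The 5 controls were close together (SD 0.04), and every tumour was above them. Cx3cr1 rose by 1.80 (95% interval 1.08 to 2.52, adjusted p = 0.00402), and a second probe set by 1.97 (adjusted p = 0.0042). Its ligand Cx3cl1 had 5.81 to 7.90 in tumours and 5.79 to 6.36 in controls (0.71, adjusted p = 0.0952). A dimmer probe set of Cx3cl1 was higher in tumours (2.06, adjusted p = 0.021 over all probe sets), and its other 2 were near background on all arrays, so the probe sets of this gene disagreed on the call.

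Cxcl16, a membrane-bound ligand that is also a scavenger receptor, was at 8.62, 8.32, 8.93, 8.37 and 8.46 in the 14-month tumours and 7.90, 8.99 and 9.15 in the 11-month tumours, against 7.58, 7.50 and 7.08 in the 14-month controls and 7.57 and 7.39 in the 11-month controls. The lowest tumour was above the highest control. It rose by 1.18 (95% interval 0.72 to 1.63, adjusted p = 0.00357), and a second probe set rose by 1.40 (adjusted p = 0.00381). Its receptor Cxcr6, carried by T, NKT and NK cells, was above background in 4 of 8 tumours and 0 of 5 controls (0.38, adjusted p = 0.395).

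The neutrophil axis was made up of the ligands Cxcl1, Cxcl2, Cxcl3, Cxcl5 and Cxcl15 and their receptor Cxcr2. None of these 6 genes passed the threshold by limma, while 20.1% of all genes did, and their median was 0.23. At an unadjusted limma p under 0.05 there was 1, Cxcl15 (-0.19), against 36.4% of all genes. Cxcl15 was near background on all arrays. Cxcl2 was at 4.80, 3.45, 4.05, 5.65 and 3.47 in the 14-month tumours and 3.17, 7.77 and 5.40 in the 11-month tumours, against 3.66, 3.88 and 3.50 in the 14-month controls and 3.51 and 3.53 in the 11-month controls. It was above background in 4 tumours and in no control (1.27, adjusted p = 0.185). Without KO_tumor_11M replicate 1 it passed (1.84, adjusted p = 0.0258), and so it did without the 3 tumours that stood apart (1.07, adjusted p = 0.0189).

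Cxcl1, whose promoter window with the shared match is printed above, was scattered in both groups. Tumours had 8.49, 8.53, 8.14, 9.18 and 7.34 at 14 months and 8.71 to 11.60 at 11 months, against controls at 8.27, 8.47 and 11.51 at 14 months and 11.66 and 7.93 at 11 months. The 2 high controls are the nearly identical pair. The log2 fold change was -0.39 (adjusted p = 0.741), with a 95% interval of -2.07 to 1.30 that spans both a fall and a rise of 2-fold.

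Cxcl3 was above background in 1 tumour, KO_tumor_11M replicate 3 at 6.18 (1.12, adjusted p = 0.159). Cxcl5 was above background in that tumour alone as well, at 5.49 (0.46, adjusted p = 0.505). Cxcr2 had 4.11 to 5.21 in tumours and 4.52 to 5.18 in controls (0.00, adjusted p = 0.985). Of 6 neutrophil markers 3 rose and 0 fell, while 10.3% of all genes rose and 9.81% fell. These markers were led by S100a9 (2.72, adjusted p = 0.00101) and S100a8 (2.66, adjusted p = 0.00131). Their summed level was 9.10 to 11.60 in tumours and 7.71 to 8.68 in controls, highest in KO_tumor_11M replicate 3, and Mpo was near background on all arrays. These markers are also made by some monocytes, and their part in the values of this axis was not tested.

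The largest group, 17 ligands and receptors linked mostly to lymphoid organs, skin and gut, had 0 genes higher, 2 lower and a median of 0.06. Of all genes 10.3% were higher and 9.81% lower. Ccl27a, a ligand of Ccr10 known from skin whose near-identical copies in the mouse genome may also bind its probes, was at 5.82, 5.96, 6.41, 5.92 and 5.46 in the 14-month tumours and 5.22, 6.11 and 5.54 in the 11-month tumours, against 6.40, 6.75 and 6.52 in the 14-month controls and 6.64 and 6.96 in the 11-month controls. KO_tumor_14M replicate 3 touched the lowest control and the other 7 tumours lay below all controls. It fell by 0.91 on the log2 scale (95% interval -1.31 to -0.51, adjusted p = 0.0064).

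Ccl28, a ligand of Ccr10 and Ccr3 at mucosal surfaces, was close to background. It was at 5.10, 4.80, 5.15, 4.92 and 4.92 in the 14-month tumours and 5.01, 4.80 and 4.92 in the 11-month tumours, against 5.31, 5.26 and 5.62 in the 14-month controls and 5.33 and 5.43 in the 11-month controls. Every tumour was below every control, by a log2 fold change of -0.44 (95% interval -0.65 to -0.24, adjusted p = 0.00842). The background level of the arrays was itself lower in tumours, as given above, and its other 2 probe sets were near background on all arrays (-0.16 and -0.13, adjusted p 0.417 and 0.213).

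Ccr10, the receptor shared by these ligands, had 5.31 to 5.68 in tumours and 5.52 to 5.62 in controls (-0.06, adjusted p = 0.531). Ccl20, which acts on Ccr6 and recruits Th17 cells and immature dendritic cells, had 4.76 to 7.42 in tumours and 4.61 to 5.25 in controls (0.89, adjusted p = 0.113). Cxcl13, which draws B cells through Cxcr5, had 5.82 to 9.12 in tumours and 6.30 to 6.86 in controls (0.85, adjusted p = 0.254), with 3 tumours above all controls and 3 below them. The 3 high ones were KO_tumor_14M replicate 4 and KO_tumor_11M replicates 2 and 3. Of 6 B cell markers 0 passed by limma, while 20.1% of all genes did. At an unadjusted limma p under 0.05 there were 2, against 36.4% of all genes. The summed level of the B cell markers was 8.73 to 11.40 in tumours and 8.60 to 10.19 in controls.

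The other genes of this group did not pass either. Ccr9, a gut-homing receptor, was above background in 2 tumours and 0 controls (0.65, adjusted p = 0.0579). Its other probe sets were near background on all arrays, with log2 fold changes of -0.10 to 0.19. Ccr7, the receptor that leads dendritic cells and naive T cells to lymph nodes, was above background in 2 tumours and 0 controls (0.34, adjusted p = 0.0802). Cxcl14 had 4.92 to 7.44 in tumours and 5.25 to 5.91 in controls (0.52, adjusted p = 0.324). Log2 fold changes lay between -0.09 and 0.21 for Ccl1, Ccl17, Ccl22, Ccl25, Cxcl17, Ccr4, Ccr6, Ccr8 and Cxcr5, none of them past the threshold.

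At 14 months, 9 of the 48 genes passed (18.8%, against 15.3% of all genes). Higher were Ccl5, Ccr1, Ccr2, Cx3cr1, Cxcl10, Cxcl16 and Cxcr4 (7 genes, 14.6%, against 8.37%), and lower were Ccl9 and Ccl28 (2 genes, 4.17%, against 6.88%). At an unadjusted p under 0.05 there were 17 of the 48, against 33.8% of all genes. Cxcl10 had the largest difference at this age (3.62, adjusted p = 0.0284), followed by Cxcr4 (3.03, adjusted p = 0.0135) and Ccl9 (-2.17, adjusted p = 0.0218). The median log2 fold change was 0.09 over the 48 genes and -0.06 over all genes. The count depended on single arrays: it was 15 without KO_tumor_11M replicate 3 (18.3% of all genes called), 4 without KO_tumor_14M replicate 2 (10.1%), 1 without control_liver_14M replicate 1 (5.07%) or replicate 2 (5.15%), and 2 without control_liver_14M replicate 3 (6.85%).

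At 11 months, with 3 tumours and 2 controls, Ccr1 (1.92, adjusted p = 0.0451) and Ccr2 (2.88, adjusted p = 0.0314) passed, both higher (4.17%, against 1.92% of all genes and 1.31% for higher genes), and 0 genes were lower (against 0.610%). The median was 0.65 over the 48 genes and -0.04 over all genes. At an unadjusted p under 0.05 there were 15 of the 48, against 16.5% of all genes. Without KO_tumor_11M replicate 1 the count was 10, with 2.96% of all genes called. It was 0 without KO_tumor_11M replicate 3, control_liver_14M replicate 1 or either 11-month control, with 0.115% to 0.94% of all genes called. It was 1 without any one of the 5 tumours at 14 months or of control_liver_14M replicates 2 and 3, with 0.907% to 2.21% called.

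The difference of the tumour effect between 14 and 11 months passed for 0 of the 48 genes by limma with Benjamini-Hochberg adjustment, as for 0 of all genes (0%). At an unadjusted limma p under 0.05 there were 2, Cxcr2 (-0.89) and Ccr4 (-0.57), against 2.99% of all genes. Ccr4 was near background on all 13 arrays, and Cxcr2 was above background on only 4 of them. Between tumours at 14 and at 11 months 0 genes passed as well, against 0.00550% of all genes, and 6 had an unadjusted p under 0.05 (12.5%, against 6.26%): Ccl7 (-0.99), Ccl9 (-1.20), Cxcl13 (-1.65), Cxcl14 (-1.07), Cxcr2 (-0.49) and Cxcr3 (-0.47). All 6 were lower at 14 months, and of the 48 genes 8 had a positive value, against 49.5% of all genes. Between controls at 14 and at 11 months 0 genes passed by the same test (0% of all genes), and 1 had an unadjusted p under 0.05 (against 1.79%). These comparisons share tumours and controls, so they are not independent of those at each age.

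**Figure D3:**
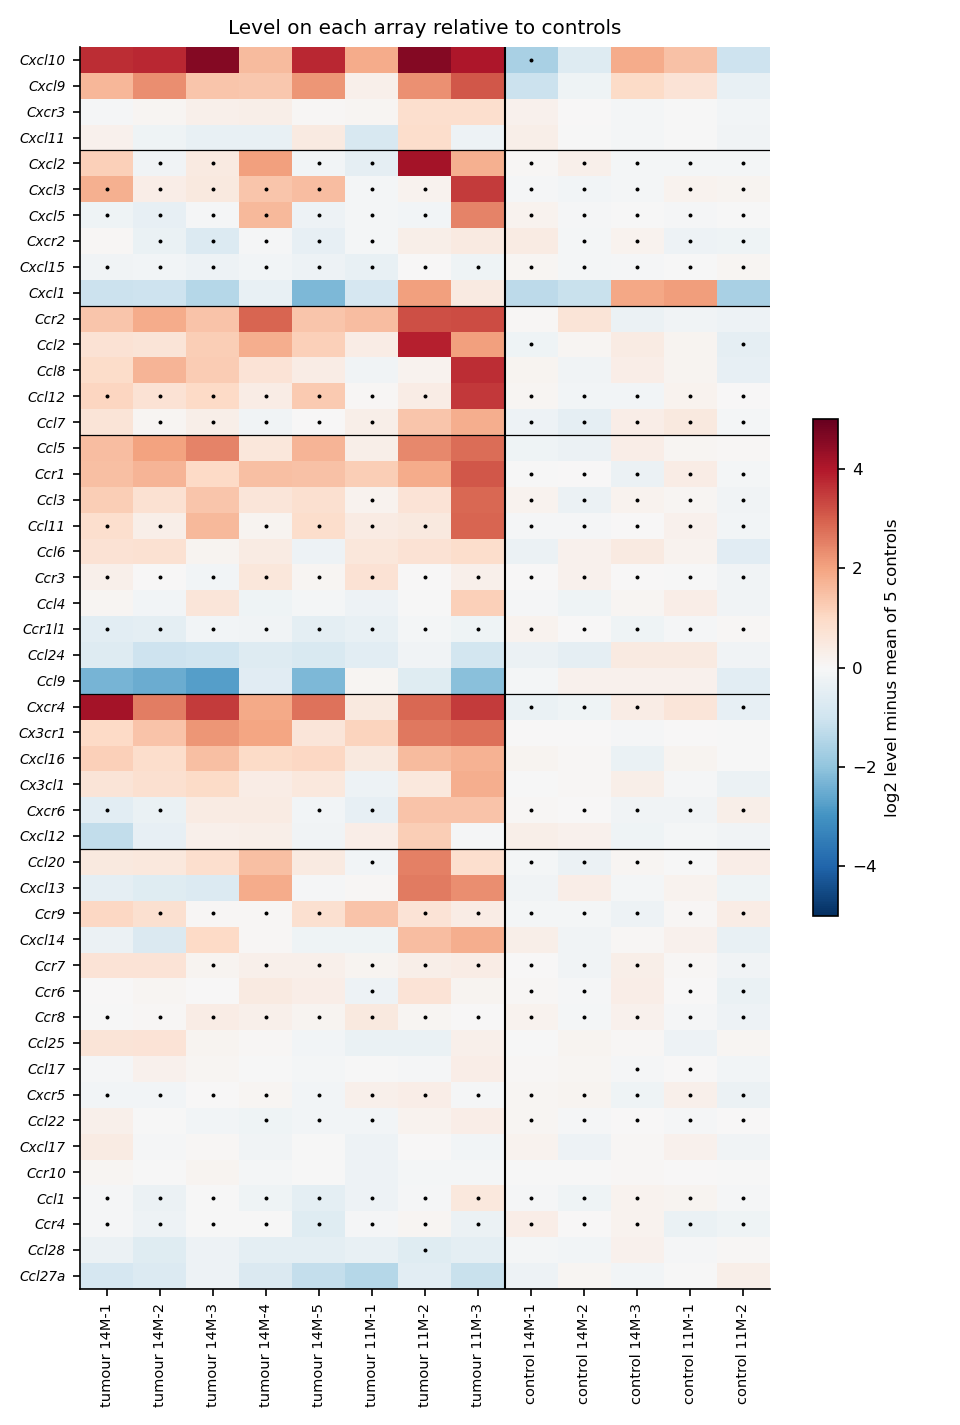
Log2 level of each of the 48 genes on each array minus the mean of the 5 controls (colour), with tumours left of the line and controls right of it, and genes grouped by role. Dots mark levels at or below the background of that array. KO_tumor_11M replicates 2 and 3 are the most strongly coloured tumours, and Cxcl10 and Cxcl1 are uneven within the controls.

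The tumours differed strongly among themselves. KO_tumor_11M replicate 3 had the highest level of the 8 tumours for 22 of the 48 genes (45.8%, against 10.3% of all genes), among them Ccl3, Ccl5, Ccl8, Ccl11, Ccl12, Ccr1, Ccr2, Cx3cr1, Cxcl9 and Cxcl16. KO_tumor_11M replicate 2 had the highest for 14 (29.2%, against 14.4%), among them Ccl2, Ccl20, Cxcl1, Cxcl2, Cxcl12 and Cxcl13. KO_tumor_11M replicate 1 had the lowest level for 21 genes (43.8%, against 17.9%), among them Cxcr4, Cxcl9, Ccl5 and Cxcl16. So the 11-month tumours held both ends of the range. Levels of macrophage and neutrophil markers were also highest in KO_tumor_11M replicate 3, and their part in this order was not tested.

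Other genes of the chemokine system were followed as a list of 16 measured genes, of which 4 rose and 0 fell (median 0.39). Of all genes 10.3% rose and 9.81% fell. Ackr3, an atypical receptor that takes up Cxcl12, had the largest difference, with 3.91 to 9.08 in tumours and 3.41 to 4.10 in controls (3.0, adjusted p = 0.0243). Pf4, a platelet chemokine also made by some macrophages, had 6.40 to 8.59 in tumours and 4.95 to 5.87 in controls (1.52, adjusted p = 0.0138). Ccrl2, a receptor that presents chemerin, rose by 0.87 (adjusted p = 0.042), and Cklf by 0.38 (adjusted p = 0.0447).

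The other 12 genes of that list did not pass. Dpp4, a peptidase that trims chemokine ends, had 4.79 to 9.91 in tumours and 9.78 to 10.05 in controls (-2.67, adjusted p = 0.0565). Among the atypical receptors, Ackr4 was at -0.38 (adjusted p = 0.0565), Ackr1 at -0.29 (adjusted p = 0.402) and Ackr2 at 0.19 (adjusted p = 0.524). Log2 fold changes were 0.76 for Mif, 0.60 for Ppbp, 0.53 for Mmp8, 0.51 for Cmklr1, 0.41 for Mmp9 and -0.09 for Rarres2. Xcl1 and Xcr1 were near background on all arrays (-0.10 and 0.36).

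**Figure D4:**
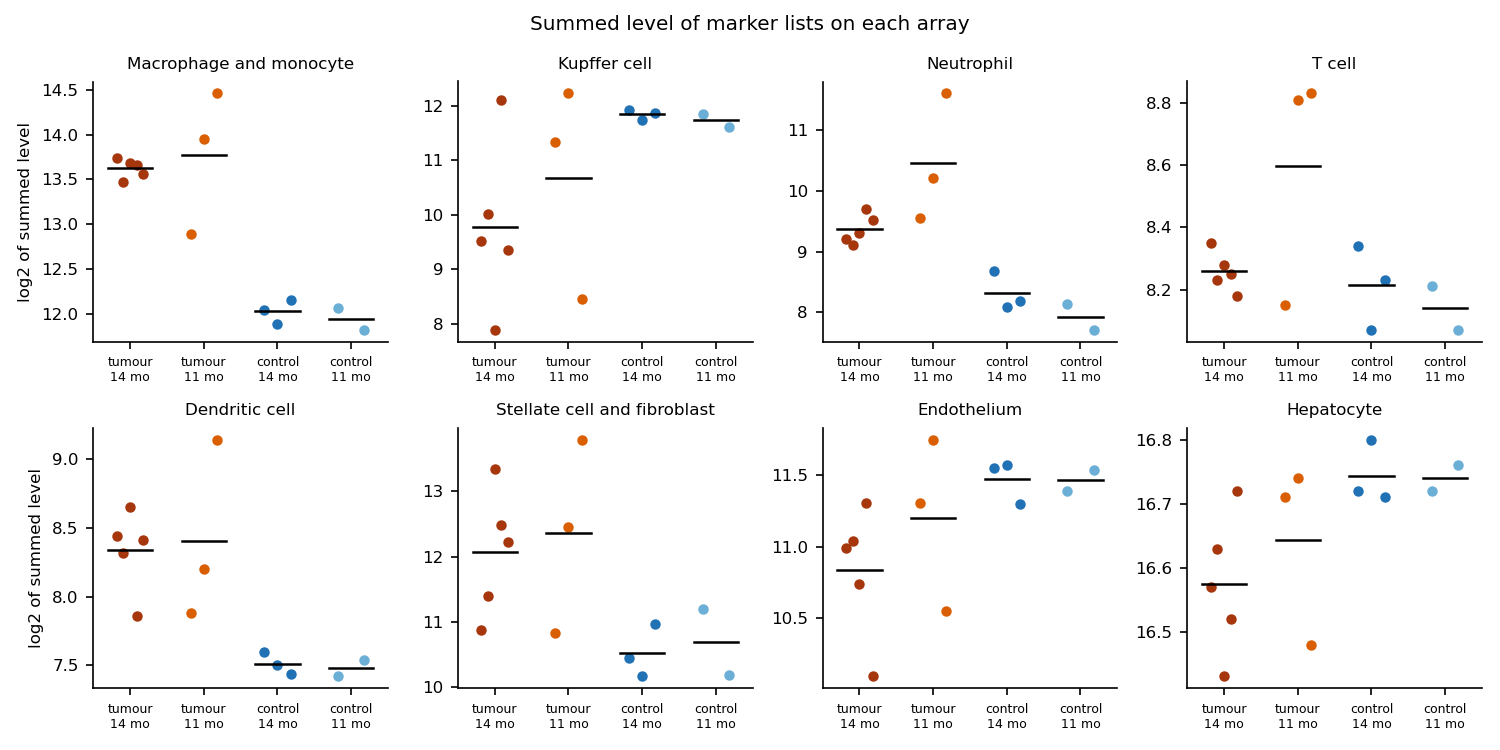
Summed level of 8 marker lists on each array (log2 of the sum over the measured genes of a list), with tumours left of controls. Bars are group means. Macrophage and neutrophil lists lie higher in all tumours than in any control, and the Kupffer cell list is at control level or near it in 3 tumours and lower in 5.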

How the data were processed

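RNA of 13 frozen liver samples was hybridised to 1-colour Affymetrix arrays, from 6 ug of total RNA each, per the labels. The deposited log2 values were produced by the authors with RMA in Partek software, per the submitters' processing notes. No source used here gives versions, background settings or scan dates, and the log base was read from the range of the values.

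Of 45101 probe sets, 34945 name 1 gene, and 18193 genes were each represented by their probe set with the highest mean, with no filter on level. Another 4 probe sets name chemokine genes among several genes and were not used. All arrays entered 1 fit of 4 group means (limma 3.58.1 in R 4.3.3, 9 residual degrees of freedom, prior 2.314), with Benjamini-Hochberg adjustment over all genes and a threshold of 0.05. Probe sets other than those chosen were adjusted over all probe sets. Groups come from the labels, and replicate numbers follow sample order and pair nothing. The 2 to 5 arrays per group limit the precision.

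The members and lists were chosen with earlier results of these data known. Values are given in full for members past the threshold in any comparison and for the 12 with the largest change with the ages combined, whether or not they passed. Marker and pathway lists give their 2 largest changes past the threshold in each direction. Settings also tried were averaging the probe sets of a gene, repeated quantile normalisation, arrays shifted to 1 median, a trended robust eBayes, array weights, averaging KO_tumor_14M replicates 1 and 2 (the only tumours with no number in their titles, which differ by a suffix, and the labels do not say whether both come from 1 mouse), leaving out arrays, a filter on dim genes, a stricter threshold, a 2-fold minimum, all probe sets, and only the arrays compared. Python 3.11.15, numpy 2.4.6, pandas 2.3.3 and matplotlib 3.10.9 made the tables and figures.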

Additional observations from a re-analysis of the deposited data

Results flagged for a closer look

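Among the 48 genes tested for a stray array within the 5 tumours at 14 months, 3 were found, all with the same array, KO_tumor_14M replicate 4, as the highest. Chance alone marks about 1 in 20 groups, and 3 of 48 is 6.25%. Ccl9 was at 10.46 in that tumour, and the other 4 tumours of that age were at 8.29 to 8.80. Cxcl13 was at 8.38, with the others at 5.82 to 6.47. Cxcl5 was at 4.64, with the others at 2.61 to 2.96, all 5 of these levels at or below the background of their arrays. The same tumour is 1 of the 3 that stood apart on the first principal component, and its Kupffer cell markers summed to 12.11, against 7.89 to 10.02 in the other 4.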

How the results depend on the processing

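No paired analysis was possible because the numbers in the sample titles differ between groups and the replicate numbers only follow sample order. Followed gene by gene over 22 other settings, 291 of 330 values for the 15 named genes kept their call and direction, 36 lost the call, 3 gained it and 0 changed sign. With the ages combined the count of 13 became 22 with array weights (26.6% of all genes called, against 20.1% in the reported fit), 8 at an adjusted p under 0.01 (7.93%), 27 without the 3 tumours that stand apart (30.1%, with 1 tumour left at 11 months) and 8 when arrays with no number in their title were left out (9.67%). At 14 months the count of 9 became 17 with array weights (31.1% of all genes, against 15.3%), 0 at an adjusted p under 0.01 (3.61%), 15 with only the arrays compared (16.7%) and 6 with KO_tumor_14M replicates 1 and 2 averaged (11.1%), where Ccl9 lost its call with the ages combined (adjusted p 0.0525). At 11 months the count of 2 became 0 when the probe sets of a gene were averaged (1.45% of all genes, against 1.92%), 4 with array weights (2.59%), 1 with KO_tumor_14M replicates 1 and 2 averaged (1.28%), 0 at an adjusted p under 0.01 (0.231%) and 0 with only the arrays compared (0%). Averaging the probe sets of a gene lowered the log2 fold changes of Ccr1 to 0.98 and Ccr2 to 1.31, both still past the threshold. Without the 3 tumours that stand apart the values were 2.34 for Ccl5, 2.47 for Cxcl9 and 3.35 for Cxcr4, all still past it. Leaving out 1 array at a time gave 8 to 20 with the ages combined, 1 to 15 at 14 months and 0 to 10 at 11 months. With the ages combined the count was 20 without KO_tumor_11M replicate 1 and 8 without control_liver_11M replicate 2. Leaving out both nearly identical controls left 1 control at 11 months. In that run the values were 1.86 for Ccl2, 1.85 for Ccl5, -1.23 for Ccl9 and -0.41 for Ccl24, and these genes lost the call. The cause of these shifts was not tested. Probe sets near background set a limit: a small difference there cannot be told from the lower background of the tumour arrays.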

Other observations

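Among genes that pass on or dampen the signal of chemokine receptors inside the cell, 10 of 25 rose and 1 fell with the ages combined. Their median log2 fold change was 0.52. Of all genes 10.3% rose and 9.81% fell, with a median of -0.05. Rgs2, a brake on G protein signalling, was at 8.11 to 12.43 in tumours and 5.35 to 6.5 in controls (4.35, adjusted p = 0.00312). Rac2, a small GTPase that drives the movement of blood cells, was at 7.31 to 9.82 in tumours and 6.43 to 6.67 in controls (1.64, adjusted p = 0.00658). Plcb3, a phospholipase below G proteins, had a small fall, with 6.13 to 6.49 in tumours and 6.47 to 6.7 in controls (-0.30, adjusted p = 0.0256). Of 23 genes that act upstream of chemokine transcription, 5 rose and 0 fell, with a median of 0.06. Tnfaip3 (2.13, adjusted p = 0.00768) and Relb (1.8, adjusted p = 0.000283), a feedback inhibitor and a member of the NF-kappaB pathway, led. The cytokines Il6, Ifng, Il4, Il17a and Lta were near background on all arrays. The summed level of this list was 12.40 to 13.41 in tumours and 11.95 to 14.16 in controls, highest in the 2 nearly identical controls.

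Other cell type lists moved as follows, while 10.3% of all genes rose and 9.81% fell. Of 6 dendritic cell markers 1 rose, Itgax (2.0, adjusted p = 0.0113), and Xcr1 was near background on all arrays. Of 8 endothelial markers 2 rose, Lyve1 (2.24, adjusted p = 0.016) and Pecam1 (0.92, adjusted p = 0.044), and 0 fell by limma. The list's median was -0.35, 5 of the other 6 had negative values that did not pass, from -0.24 for Kdr to -2.0 for Clec4g, and 4 of the 8 had an unadjusted p under 0.05. Of 8 stellate cell and fibroblast markers 4 rose, led by Col1a1 (3.14, adjusted p = 0.0167) and Col3a1 (2.62, adjusted p = 0.0168), and Lrat, known from quiescent stellate cells, fell (-0.88, adjusted p = 0.0428). Of 5 bile duct markers 0 passed by limma (0 at an unadjusted p under 0.05), and of 7 hepatocyte markers 0 passed (1 at an unadjusted p under 0.05). Of all genes 36.4% had an unadjusted limma p under 0.05. The part of these cell types in the chemokine values was not tested.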
